A study of Homo sapiens with 8 samples.

Results

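The genes described here are 10 secreted vascular growth factors, out of 43682 gene symbols counted in each library. They were chosen by gene symbol from the RNA count files of UM-RC-2, an established line of clear cell renal cell carcinoma with a mutated VHL gene. They fall into the VEGF family (VEGFA, VEGFB, VEGFC and PGF), the PDGF family (PDGFA, PDGFB and PDGFC) and 3 other secreted factors (ADM, ANGPTL4 and ANGPT2). Cells had been infected with lentivirus carrying VHL or a construct that the labels call VEC, and both groups had been selected in 10 µg/ml blasticidin. Each group had 2 libraries. The labels name total RNA for both libraries of replicate 1 and polyA RNA for both libraries of replicate 2, so VHL was compared with VEC within each number (pair 1 and pair 2). Nothing in the labels says that the replicates came from separate cultures or clones. The main p-values then measure only the spread of the change between these 2 pairs, moderated by the spread across genes.

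VHL is the substrate-recognition part of a ubiquitin ligase that marks the alpha subunits of hypoxia-inducible factors (HIF) for destruction, and tumour cells without working VHL keep HIF active in normal oxygen. VEGFA is a HIF target and the main growth signal for endothelial cells, acting through the receptors FLT1 and KDR with neuropilins as co-receptors. PDGF ligands act on PDGFRA and PDGFRB of pericytes and fibroblasts. Clear cell renal carcinoma is known for its dense vessels, and drugs against VEGF receptors are used to treat it.

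Library totals ran from 16230291 to 50027348 counts, and a single count was worth less in the deeper replicate 2 libraries. The replicates differed more than the groups: across 21673 genes, which are not independent replicates, the log2 levels of same-numbered libraries correlated at r = 0.991 and 0.978, and those of the 2 libraries of a group at 0.502 (VEC) and 0.531 (VHL). Protein-coding genes took 95.6% and 96.1% of the counts in replicate 1 but 65.7% and 71.9% in replicate 2, and pseudogenes took 1.40% and 2.09% in replicate 1 (VEC and VHL) but 31.28% and 24.96% in replicate 2. Total RNA and polyA RNA are used below as the labels give them, and whether the labels fit the libraries was not tested. In replicate 2, 530 protein-coding genes had at least 100 counts in both libraries while listed at 0 in both replicate 1 libraries. The reverse held for 2 protein-coding genes, and none of the 10 growth factor genes was in either set. VHL itself was measured at 37.1 (VEC) and 146 CPM (VHL) in pair 1 and at 88.9 and 151 CPM in pair 2, so it was higher in the VHL library of both pairs. CPM is the depth-normalised read count, here after TMM scaling, which corrects for library composition. Of the renal epithelial and carcinoma markers, PAX8, PAX2, KRT8, KRT18, VIM, CDH6 and CDH16 were detected in all 4 libraries, whereas EPCAM had at most 2 counts. The endothelial markers PECAM1, CDH5 and VWF were at 0 in all 4 libraries, whereas EGFL7 had between 69 and 137 counts in each. The leukocyte marker CD68 (407, 217, 1925 and 1505 counts in VEC and VHL of pair 1, then of pair 2) and the pericyte marker RGS5 (129, 141, 222 and 263) were also present in every library. Other members of these lists were absent or nearly so. COL1A2, COL3A1, CD3E and MS4A1 were at 0 in all 4 libraries. COL1A1, LUM and PDGFRB had at most 1 count, and CD14 had at most 4. DCN and PTPRC were at 0 in replicate 1 alone, and ACTA2 had between 18 and 125 counts. The endothelial marker EMCN (1133 and 1878 counts) and the leukocyte marker LYZ (1989 and 1793 counts) appeared in replicate 2, against at most 1 count in replicate 1. The summed level of the 8 endothelial markers was 6.18 and 7.40 CPM in pair 1 and 27.6 and 47.8 CPM in pair 2 (VEC and VHL), and most of it came from EGFL7 in pair 1 and from EMCN in pair 2. The summed level was 6.44, 8.95, 7.96 and 8.57 CPM for the pericyte and fibroblast markers and 17.7, 11.8, 87.5 and 82.4 CPM for the leukocyte markers, in the same order of libraries. The part of these markers in the results was not tested.

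VEGFA, VEGFB, ADM and ANGPTL4 were lower in VHL cells, whereas no PDGF gene and not ANGPT2 passed the test. The test was edgeR's quasi-likelihood test with the replicate number as a block (two-sided, Benjamini-Hochberg adjusted over the 24417 genes that passed a filter on low counts, threshold 0.05). Of the 10 genes, 8 passed the filter, 4 of these were called lower and 0 higher. Over all genes tested, 2.35% were called lower and 0.749% higher. VHL was below VEC in both pairs for the same 4 genes and for 25% of all genes tested. The genes tested include 2570 at 0 in both replicate 1 libraries with at least 100 counts in both replicate 2 libraries. These cannot be below VEC in both pairs, so the share among genes counted in both replicates is above 25%. No share was computed without these genes. The median log2 change was -0.47 over the 8 genes and -0.03 over all genes tested. Without the block the spread between the replicate numbers counts as error, and edgeR then called 0 of the 8 (0 at an unadjusted p under 0.05, adjusted p = 0.999991 for each), as did DESeq2.

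**Figure D1:**
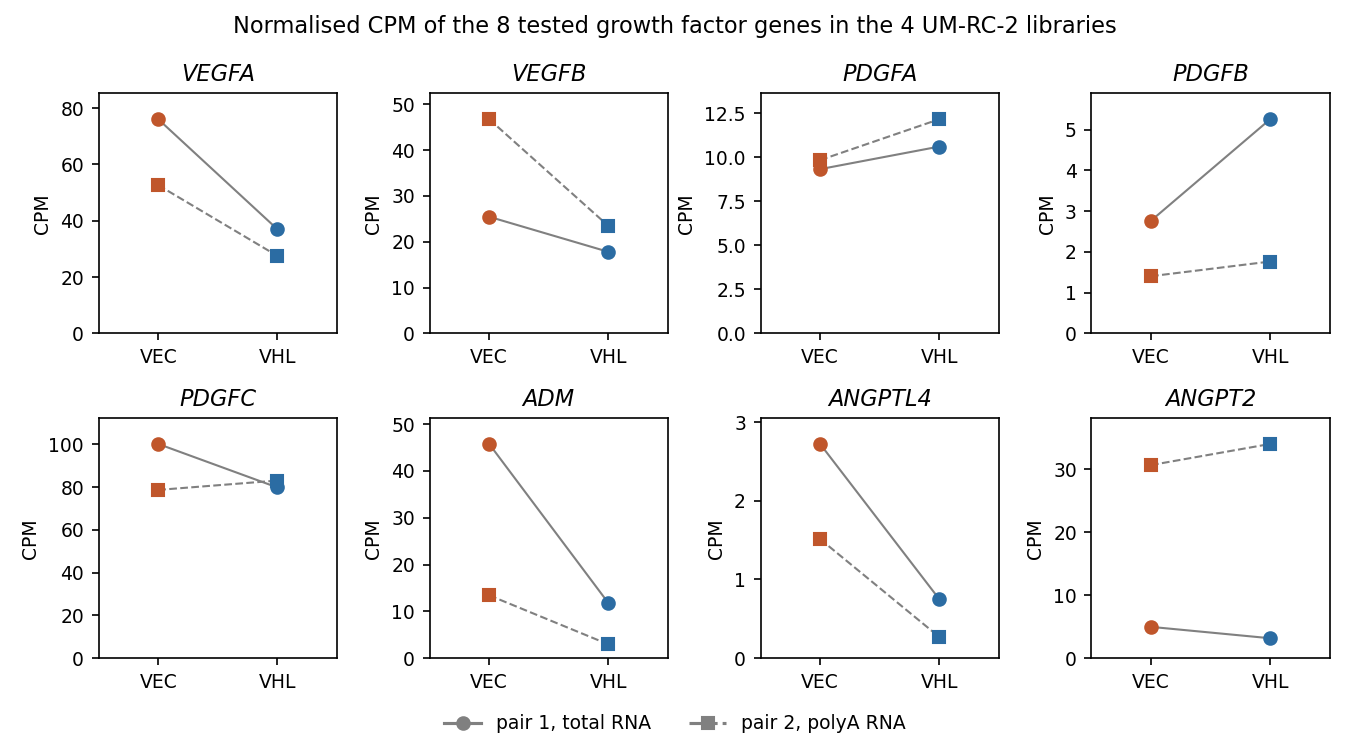
Normalised CPM (y axis, linear, from 0) of each tested gene in the VEC and VHL libraries (x axis), with circles and solid lines for pair 1 (total RNA) and squares and dashed lines for pair 2 (polyA RNA). VEGFA, VEGFB, ADM and ANGPTL4 slope down in both pairs, PDGFA and PDGFB slope up, and PDGFC and ANGPT2 change direction between the pairs.

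Of the 4 lowered genes, 3 had an entry in the RefSeq table of promoters (build GRCh38.p14). The 250 bases before each annotated start are printed because these genes were lower in VHL in both pairs, though by different sizes. Capitals mark the letters ACGTG or GCGTG on either strand, the core of the element that HIF is known to bind, which appears as CACGT or CACGC when it lies on the opposite strand.
ADM, chr11:10304823-10305072, plus strand: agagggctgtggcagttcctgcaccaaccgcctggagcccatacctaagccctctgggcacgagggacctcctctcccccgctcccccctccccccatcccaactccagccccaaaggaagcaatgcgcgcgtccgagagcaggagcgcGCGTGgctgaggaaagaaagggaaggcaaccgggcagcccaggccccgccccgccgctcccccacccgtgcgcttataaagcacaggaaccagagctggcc
ANGPTL4, chr19:8363905-8364154, plus strand: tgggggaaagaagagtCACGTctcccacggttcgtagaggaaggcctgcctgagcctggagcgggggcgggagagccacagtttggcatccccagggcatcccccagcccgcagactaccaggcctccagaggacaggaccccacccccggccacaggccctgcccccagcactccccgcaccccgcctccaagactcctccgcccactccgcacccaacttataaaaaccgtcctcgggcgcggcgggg
VEGFB, chr11:64234334-64234583, plus strand: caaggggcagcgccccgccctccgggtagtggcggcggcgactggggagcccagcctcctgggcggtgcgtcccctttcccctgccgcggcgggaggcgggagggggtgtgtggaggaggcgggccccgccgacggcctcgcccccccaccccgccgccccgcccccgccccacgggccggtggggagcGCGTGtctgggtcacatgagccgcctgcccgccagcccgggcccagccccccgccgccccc
Each window held 1 match, which began 101 bases before the start in ADM, 234 in ANGPTL4 and 61 in VEGFB. In ANGPTL4 it lay on the opposite strand. At least 1 match was present in 43.2% of all 35116 promoters of the table and in 52.6% of those of the tested genes, so a match in this window is common. These letters describe the sequence and are not a measurement of binding. In all, 6 of the 10 genes had an entry, and a match was not limited to the lowered genes. VEGFC, which was near 0, had 1 match that began 59 bases before the start, and PDGFA, which was not called, had a match in 3 of its 4 entries. PGF had a match in 1 of its 2 entries.

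VEGFA, the principal endothelial growth factor, was counted 1760 (VEC) and 690 times (VHL) in pair 1, and 2400 and 1124 times in pair 2. These are 76.0 and 37.0 CPM, and 52.6 and 27.5 CPM. Both VHL libraries lay below both VEC libraries, an order that 3.39% of all tested genes showed. Genes at 0 in both replicate 1 libraries could not show it, which lowers that share. The level in VEC cells was 2.06 times that in VHL cells in pair 1 and 1.91 times in pair 2, so the pairs gave nearly the same change. The blocked log2 change was -0.99 ± 0.21 (SE, n = 2 libraries per group, edgeR adjusted p = 0.000434). It was called in all 6 fits that kept the block. The 3 genes whose changes in the pairs were closest to those of VEGFA, among 9414 other genes with at least 100 counts in each of the 4 libraries, were RNF181, CALCOCO1 and ORAI3, at Euclidean distances of 0.036, 0.038 and 0.058 on the log2 scale.

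VEGFB, a ligand of FLT1 that is linked to metabolic and cardiac tissue more than to vessel sprouting, also fell, but by a size that depended on the pair. Pair 1 gave 589 (VEC) and 332 counts (VHL), or 25.4 and 17.8 CPM, and pair 2 gave 2131 and 958, or 46.7 and 23.5 CPM. The groups did not overlap, although VHL of pair 2 was close to VEC of pair 1. The VEC level was 1.43 times the VHL level in pair 1 and 1.99 times in pair 2. The blocked log2 change was -0.76 ± 0.23 (SE, n = 2 per group, edgeR adjusted p = 0.0335). This call was lost without the low-count filter (adjusted p = 0.0567, edgeR) and in DESeq2's blocked Wald test (adjusted p = 0.0749), where the log2 changes were -0.78 and -0.80.

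The remaining VEGF genes were near the detection limit. VEGFC, the lymphatic growth factor, had 0 counts in 3 libraries and 2 in VHL of pair 2. The upper limit that 3 counts set was 0.130 CPM for VEC of pair 1, 0.161 for VHL of pair 1 and 0.0658 for VEC of pair 2. PGF, the placental member that binds FLT1, had 6 and 3 counts in pair 1 and 5 and 6 in pair 2 (VEC and VHL), between 0.110 and 0.259 CPM. Neither gene passed the filter, and a difference between the groups was not detectable at this depth.

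PDGFA, a ligand of PDGFRA, was measured at 9.33 (VEC) and 10.6 CPM (VHL) in pair 1 and at 9.85 and 12.2 CPM in pair 2, from between 198 and 497 counts. Both VHL libraries were above both VEC libraries, as for 4.47% of all tested genes, a share likewise lowered by genes at 0 in both replicate 1 libraries. The log2 change was 0.25 with a 95% interval from -0.32 to 0.81 (edgeR adjusted p = 0.881). The interval leaves room for no change and for a rise of more than 1.5-fold.

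PDGFB, which acts on PDGFRB and recruits pericytes, was the PDGF gene with the fewest counts. Pair 1 gave 64 (VEC) and 98 counts (VHL), or 2.76 and 5.25 CPM, and pair 2 gave 64 and 72, or 1.40 and 1.76 CPM. VHL was higher than VEC in both pairs, yet VHL of pair 2 was below VEC of pair 1, so the groups overlapped. The log2 change within pair 1 was 0.91, with a counting interval (95%, exact conditional binomial) from 0.46 to 1.40. In pair 2 it was 0.32, from -0.18 to 0.84. The blocked value was 0.63, from -0.22 to 1.48, and was not called (edgeR adjusted p = 0.646).

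PDGFC, a ligand of PDGFRA that must be cleaved to become active, had 2320 and 1490 counts in pair 1 and 3590 and 3394 in pair 2. These are 100.2 (VEC) and 79.9 CPM (VHL), and 78.7 and 83.1 CPM. VHL was thus the lower library in pair 1 and the higher one in pair 2. The blocked log2 change was -0.12, with a 95% interval from -0.54 to 0.30 (edgeR adjusted p = 0.952). The interval excludes a change as large as that estimated for VEGFA.

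**Figure D2:**
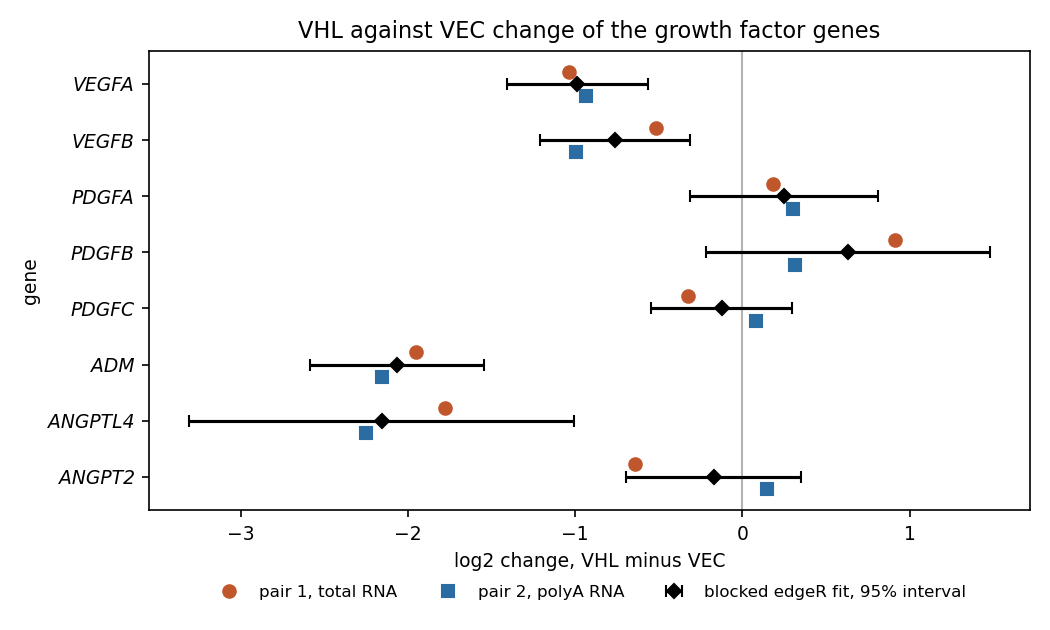
Log2 change of VHL against VEC (x axis) for each tested gene (y axis). Black diamonds are the blocked edgeR estimate with its 95% interval, and coloured points are the values within pair 1 (circles) and pair 2 (squares); the intervals of VEGFA, VEGFB, ADM and ANGPTL4 lie below 0 and the other 4 include it.

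The families were also compared inside each library as ratios of counts, which do not depend on the scaling of libraries. Since gene length and counting differ between genes, the ratios do not say which gene had more transcripts. They are compared here between VEC and VHL of a pair, since ratios also differed between the replicates of a group. Most PDGF counts came from PDGFC, with 2320 of 2600 (VEC) and 1490 of 1786 (VHL) in pair 1. In pair 2 these were 3590 of 4103 and 3394 of 3963. VEGFA plus VEGFB stood to the 3 PDGF genes at 0.903 in VEC and 0.572 in VHL of pair 1, and at 1.10 and 0.525 in pair 2. The counting intervals (95%, Clopper-Pearson, covering counting error only) were 0.854 to 0.956 and 0.529 to 0.618 in pair 1, and 1.06 to 1.15 and 0.498 to 0.554 in pair 2. The ratio in VEC was therefore 1.58 times that in VHL in pair 1 and 2.10 times in pair 2. With 2 libraries per group an exact permutation test of this ratio cannot reach the threshold, and none was run.

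Within the VEGF family the ratio of VEGFA to VEGFB was 2.99 in VEC and 2.08 in VHL of pair 1, and 1.13 and 1.17 in pair 2. VHL was lower in pair 1 alone, and the intervals overlapped in pair 2 (1.06 to 1.19 in VEC and 1.08 to 1.28 in VHL). The ratio of PDGFB to PDGFA was 0.296 and 0.495 in pair 1, and 0.143 and 0.145 in pair 2. The intervals of PDGFB to PDGFA overlapped in both pairs (0.221 to 0.393 and 0.384 to 0.634 in pair 1). The ratio of PDGFA to PDGFC was 0.0931 in VEC and 0.133 in VHL of pair 1, and 0.125 and 0.146 in pair 2. It was higher in VHL in both pairs, with intervals that were separate in pair 1 and overlapped in pair 2.

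**Figure D3:**
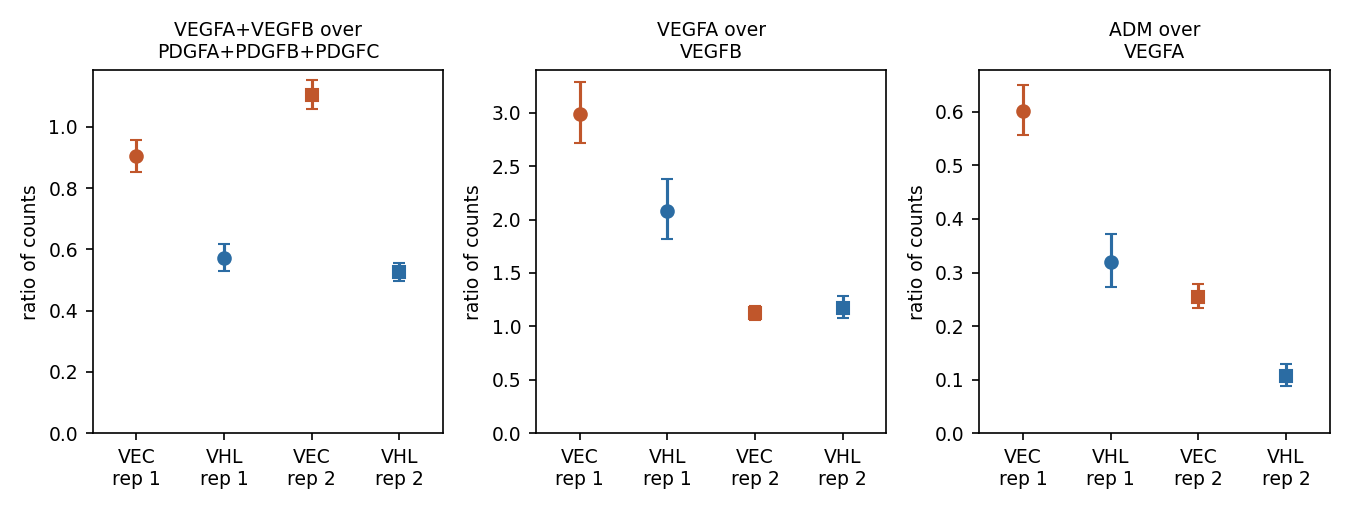
Ratios of raw counts within each library (y axis, from 0) for VEC and VHL of replicates 1 and 2 (x axis), with 95% Clopper-Pearson intervals for counting error. The VEGF to PDGF ratio and the ADM to VEGFA ratio are lower in VHL in both pairs, and the VEGFA to VEGFB ratio is lower in pair 1 alone.

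ADM, which encodes the vasodilator and vessel-stabilising peptide adrenomedullin, had the smallest p-value of the 8 tested genes. Its counts were 1059 (VEC) and 220 (VHL) in pair 1, or 45.7 and 11.8 CPM, and 612 and 121 in pair 2, or 13.4 and 2.96 CPM. Both VHL libraries were below both VEC libraries, although VHL of pair 1 came close to VEC of pair 2. The VEC level was 3.88 times the VHL level in pair 1 and 4.53 times in pair 2. The blocked log2 change was -2.06 ± 0.27 (SE, n = 2 per group). Its adjusted p in edgeR was 5.40e-12, which placed it at rank 37 of the 24417 genes. Its ratio to VEGFA counts was 0.602 in VEC and 0.319 in VHL of pair 1, and 0.255 and 0.108 in pair 2, with intervals that did not overlap within either pair. ADM was thus further below its VEC level than VEGFA was in both pairs.

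ANGPTL4, an inhibitor of lipoprotein lipase with effects on vessel permeability, had a similar change from far fewer counts. Its counts were 63 (VEC) and 14 (VHL) in pair 1, and 69 and 11 in pair 2. These are 2.72 and 0.750 CPM, and 1.51 and 0.269 CPM, with no overlap of the groups. The VHL counts were only 14 and 11. The low-count filter's minimum count of 10 is scaled to library depth, so raw counts cannot be set against it directly. The size of the change therefore rests on few VHL counts. The VEC level was 3.63 times the VHL level in pair 1 and 5.62 times in pair 2. The blocked log2 change was -2.16 ± 0.59 (SE, n = 2 per group, edgeR adjusted p = 0.0132). Its ratio to VEGFA counts was 0.0358 and 0.0203 in pair 1, where the intervals overlapped, and 0.0288 and 0.00979 in pair 2, where they did not. The stricter filter removed the gene, and DESeq2's blocked test gave it no adjusted p.

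ANGPT2, the context-dependent partner of the receptor TEK, was counted 115 (VEC) and 59 times (VHL) in pair 1, or 4.97 and 3.16 CPM, but 1398 and 1389 times in pair 2, or 30.7 and 34.0 CPM. The level in pair 2 was 6.17 times that of pair 1 in VEC and 10.8 times in VHL, a larger gap between replicates than for any other tested gene of the 10. The change was -0.64 in pair 1 (counting interval -1.13 to -0.19) and 0.15 in pair 2 (0.04 to 0.26), and the blocked value was -0.17 with a 95% interval from -0.70 to 0.35 (edgeR adjusted p = 0.939). The whole gene lies within the span of MCPH1 in the RefSeq table. Whether the counting used strand is not given in the sources used here, so the values of ANGPT2 are uncertain. MCPH1 had 982 and 812 counts in pair 1 and 1778 and 1797 in pair 2.

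Among the receptors and co-receptors of these ligands, the neuropilins were called lower. Of 15 genes listed, 6 were tested, 2 fell and 0 rose, with a median log2 change of -0.14. For this list and those below, the shares over all genes tested were 2.35% called lower and 0.749% called higher. NRP1 and NRP2, the neuropilins that bind VEGF ligands alongside the main receptors, were the 2 that fell. NRP1 was at 40.8 (VEC) and 16.7 CPM (VHL) in pair 1 and at 19.7 and 8.08 CPM in pair 2, a VEC level 2.44 times the VHL level in each pair. Its blocked log2 change was -1.29 ± 0.25 (edgeR adjusted p = 2.93e-05). NRP2 was at 6.96 and 0.858 CPM in pair 1 and at 3.20 and 1.13 CPM in pair 2. Its blocked log2 change was -2.17 ± 0.45 (edgeR adjusted p = 0.000154), and the VEC level was 8.11 times the VHL level in pair 1 and 2.84 times in pair 2. The stricter filter removed NRP2, and DESeq2's blocked test gave it no adjusted p.

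The signalling receptors gave no call. KDR, the main VEGFA receptor of endothelium, was at 0 counts in all 4 libraries, and PDGFRB had at most 1 count. FLT1 was listed at 0 in both replicate 1 libraries but had 1480 (VEC) and 1307 (VHL) counts in replicate 2. Its blocked log2 change of -0.02 thus rests on pair 2 alone. PDGFRA had 1 and 0 counts in pair 1 and 52 and 46 in pair 2, so its value rests mostly on pair 2 (log2 change -0.15, edgeR adjusted p = 0.992). FLT4, the VEGFC receptor, was at 8.12 and 7.29 CPM in pair 1 and at 3.95 and 3.67 CPM in pair 2 (log2 change -0.13, edgeR adjusted p = 0.974). CALCRL, the adrenomedullin receptor, was at 10.4 and 7.45 CPM and at 5.37 and 6.34 CPM (log2 change -0.11, edgeR adjusted p = 0.978). Its partners RAMP1 and RAMP3 were at 0 in all 4 libraries and RAMP2 had at most 7 counts.

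Among genes for ligand maturation and retention, 2 of 11 tested fell and 0 rose (median log2 change 0.04). PAM, the enzyme that amidates adrenomedullin and other peptides into their active form, was at 534 and 225 CPM in pair 1 and at 344 and 197 CPM in pair 2 (VEC and VHL). Its blocked log2 change was -1.02 ± 0.25 (edgeR adjusted p = 0.00303). MME, a cell-surface peptidase that degrades small peptides, was at 206 and 96.9 CPM and at 129 and 88.2 CPM (-0.82 ± 0.22, edgeR adjusted p = 0.0143). PCSK5 and FURIN, convertases that cleave growth factor precursors, had log2 changes of 0.06 and -0.03 and were not called. ADAMTS3, which activates VEGFC, had a value of 0.47 (edgeR adjusted p = 0.279).

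Of the other ligands of these families, 9 were tested and 0 were called in either direction (range -1.05 to 0.97, median 0.14). They included ANGPT1, PDGFD and ADM2. ADM2, the close relative of ADM, had 139 (VEC) and 174 counts (VHL) in pair 1 and 1229 and 1184 in pair 2, and its log2 change of 0.34 was not called (edgeR adjusted p = 0.706). ANGPT1, the TEK agonist, shared the gap between replicates with ANGPT2, at 0.562 and 0.697 CPM in pair 1 and 12.8 and 12.2 CPM in pair 2.

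Other secreted angiogenic factors moved both ways: 1 of 10 tested fell and 2 rose (median log2 change 0.08). APLN, the endothelial peptide apelin, was counted 382 (VEC) and 38 times (VHL) in pair 1, and 430 and 48 times in pair 2. The VEC level was 8.10 times the VHL level in pair 1 and 8.02 times in pair 2, and the estimate lay further from 0 than that of each of the 8 tested growth factor genes (-3.01 ± 0.35, edgeR adjusted p = 1.67e-14). FGF2, a fibroblast growth factor that acts on endothelium without VEGF receptors, was at 68.2 and 104 CPM in pair 1 and at 49.0 and 99.9 CPM in pair 2. It rose by 0.82 ± 0.22 on the log2 scale (edgeR adjusted p = 0.00855). TGFA, a ligand of the EGF receptor, was at 30.7 and 50.5 CPM and at 18.4 and 31.9 CPM, and rose by 0.76 ± 0.22 (edgeR adjusted p = 0.0276), a call that was lost without the low-count filter. For both, the VHL libraries were above both VEC libraries. ANG (14, 2, 23 and 3 counts in VEC and VHL of pair 1, then of pair 2) had a log2 change of -2.61. That of CCN1 was -0.77, with 0.16 in pair 1 and -1.47 in pair 2. Neither was called (edgeR adjusted p = 0.109 and 0.132), but both were called in the edgeR fit to protein-coding genes alone. CCN1 was also called with the stricter filter.

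Secreted inhibitors of angiogenesis showed 1 fall and 0 rises among 13 tested (median log2 change 0.08). COL4A3, the collagen chain from which the inhibitor tumstatin is cut, was at 21.7 and 6.59 CPM in pair 1 and at 12.2 and 3.70 CPM in pair 2 (-1.72 ± 0.30, edgeR adjusted p = 1.54e-06). THBS1, the inhibitor thrombospondin, was at 58.1 and 44.3 CPM and at 58.5 and 50.6 CPM. Its log2 change of -0.30 was not called in edgeR (adjusted p = 0.668) but was called in DESeq2's blocked Wald test. ISM1 had 13 and 34 counts in pair 1 and 18 and 52 in pair 2. Its log2 change of 1.69 was not called (edgeR adjusted p = 0.122), but it was called in the edgeR fit to protein-coding genes alone. Over the 5 lists together, 6 of 49 tested genes were called lower and 2 higher, with a median log2 change of 0.02. Over all genes tested these were 2.35%, 0.749% and -0.03. Without the block edgeR called 0 of the 49 (0 at an unadjusted p under 0.05), and DESeq2 called 0 (4 at an unadjusted p under 0.05). Bulk counts do not tell fewer cells of a kind from less RNA per cell, and they measure transcripts and not secreted protein.

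**Figure D4:**
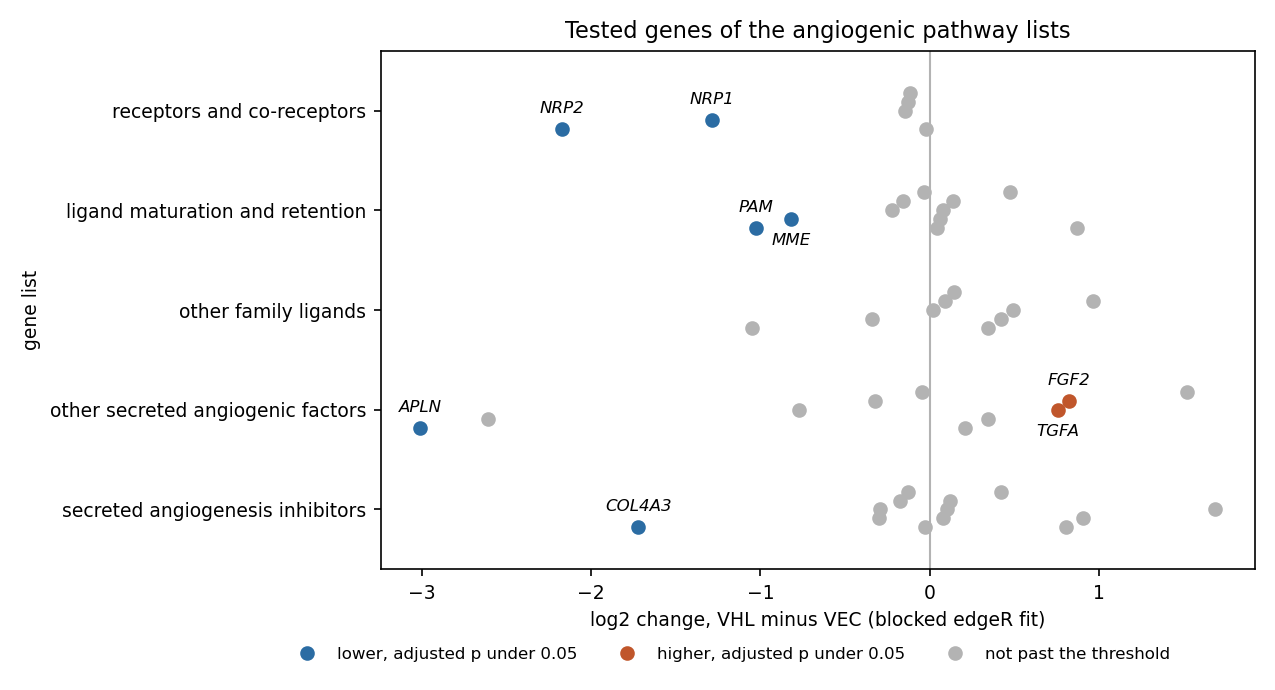
Blocked log2 change of VHL against VEC (x axis) for the tested genes of 5 lists (y axis), 1 point a gene with vertical spread for legibility. Blue points are genes called lower (NRP1, NRP2, PAM, MME, APLN and COL4A3), orange points genes called higher (FGF2 and TGFA), and grey points genes that were not called.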

How the data were processed

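RNA libraries of UM-RC-2 cells were analysed, 2 per group, placed in groups by their titles. The deposited values were raw counts per gene symbol from alignments to hg19, per the file headers. The submitters' processing notes list featureCounts and HOMER. Aligner, annotation, strand use and the treatment of multi-mapping reads are not given in the sources used here. Of the symbols, 42760 (97.9%) matched the RefSeq table of GRCh38.p14, which was used for names, classes, neighbours and promoters.

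Counts were tested in R 4.3.3 with edgeR 4.0.16 (filterByExpr, TMM, glmQLFit and glmQLFTest), with the replicate number as a block, because the labels give each number its own kind of RNA (total or polyA). As a check of the pairing, same-numbered libraries deviated together from their groups (r = 0.983 over 21673 genes). The fit left 1 residual degree of freedom. Each SE was derived from the F statistic and the log2 change. Changes within a pair used a prior count of 2. DESeq2 1.42.0, other scalings and filters and fits without the block were alternatives. Changes within a pair, leaving out 1 replicate, have no test. The genes, the lists and the blocked design were chosen with earlier results of these data known. All 10 genes are named, as are list genes past the threshold (at most 5 per list) and the 3 genes most like VEGFA; other names were picked after their values were seen. The 4 H3K27ac tables name regions without positions and were not used.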

Additional observations from a re-analysis of the deposited data

Results flagged for a closer look

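PDGFC and ANGPT2 had values of opposite sign in the 2 pairs, and the counting interval of each value excluded 0. The log2 change of PDGFC was -0.33 in pair 1 (labelled total RNA) and 0.08 in pair 2 (labelled polyA RNA). That of ANGPT2 was -0.64 in pair 1 and 0.15 in pair 2. The difference between the pairs was not tested, since each pair holds 1 library per group. The pair 2 values depend on the scaling: with counts of protein-coding genes as the scale they were -0.11 for PDGFC and -0.039 for ANGPT2, and with DESeq2 size factors that of PDGFC was -0.018.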

How the results depend on the processing

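The count of called genes rested on the replicate block. With it, edgeR called 4 of the growth factor genes, and between 2 and 4 in the other fits with the block: 2 in DESeq2's Wald test, where VEGFB is lost and ANGPTL4 and PDGFB have no adjusted p and so no verdict, and 3 without a filter or with the stricter filter. With no replicate block 0 were called, in edgeR and in DESeq2 (added after the data were seen), and 0 when any library was left out as well, where the lone library is assumed to vary like the others. The 8 called list genes likewise became 0 in each of these fits without the block, and between 7 and 11 in fits with it. VEGFA, VEGFB, ADM and ANGPTL4 were lower in every alternative run; without a library and without the block, their log2 changes spanned -1.22 to -0.71, -1.18 to -0.26, -3.32 to -0.86 and -2.96 to -1.51. Of the genes that were not called, PDGFA was above 0 in every alternative run, and PDGFB, PDGFC and ANGPT2 were not of one sign. PDGFB ranged from -0.24 (without VHL replicate 1) to 1.32. PDGFC was 0.050 without VEC replicate 1, ran from -0.33 (without replicate 2) to 0.078 (without replicate 1), and within pair 2 was -0.11 (protein-coding counts as the scale) and -0.018 (DESeq2 size factors). ANGPT2 was 0.061 with no replicate block, 0.93 without VHL replicate 1, 1.95 without VEC replicate 2, -0.72 without VEC replicate 1 and -2.59 without VHL replicate 2 (all without the block). It ran from -0.64 (without replicate 2) to 0.15 (without replicate 1) and, within pair 2, was -0.039 with protein-coding counts as the scale. That scale shifted all changes of pair 2 by -0.19. The cause was not tested. Depth limits VEGFC, PGF and ANGPTL4 most.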
